A study of Homo sapiens with 6 samples.

Results

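The genes of coagulation and fibrinolysis were examined in HepG2 cells grown in a bioreactor and on plates. A list of 35 human genes was taken by name: the clotting factors, the fibrinogen chains, the natural anticoagulants, the plasminogen system and the enzymes of the vitamin K cycle. Of the 19846 genes in the deposited table, 33 were members of the list, and F9 and THBD were not analysed here. Counts were high enough to test 29 of the 33, while F8, HRG, KLKB1 and TFPI2 were too low. The 3D group (3 samples) came from an interwoven hollow fiber bioreactor, in which medium recirculated at 23.5 mL/min, a feed entered at 2 mL/hour and air with CO2 was supplied at 200 mL/min. Its medium was equal parts of EMEM and DMEM with 10% fetal bovine serum, penicillin-streptomycin and GlutaMAX. The 2D group (3 samples) was seeded at 200000 cells per square centimetre in plates and kept in EMEM that was replaced every 2 days, with no serum content given. Both groups were HepG2, an established human liver tumour cell line, at passages 7 to 9 and 37 °C. HepG2 derives from a single tumour and stands for hepatocytes only in part. Culture form, medium and feeding differed together, and their effects cannot be told apart. Nothing in the labels tells whether the replicates were separate cultures, so p-values measure only the spread between these samples, which may be technical.

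Blood clots when tissue factor and factor VII start a chain of proteases that ends with thrombin, the active form of prothrombin, cutting fibrinogen into fibrin. Antithrombin, protein C and tissue factor pathway inhibitor hold that chain in check, and plasmin, made from plasminogen by the activators urokinase and tPA, dissolves the fibrin. Hepatocytes secrete most of these proteins into the blood, and several of them are carboxylated inside the cell in a reaction that consumes vitamin K.

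The libraries held 9530795 to 15897621 counts in 3D and 16270361 to 17943513 counts in 2D, and 3D replicate 1 was the smallest. Levels are given as CPM, that is counts divided by the TMM-scaled size of the library and set to the same total. The 8 hepatocyte markers were all listed, with summed levels of 30690.2 to 49280 CPM in 3D and 39472 to 43910 CPM in 2D; APOA1 and TF were called higher and APOB was called lower. Of 8 endothelial markers 4 were listed, summing to 3.09 to 8.08 CPM in 3D and 2.50 to 4.97 CPM in 2D, with 0 called. Of 8 macrophage and blood markers 3 were listed, summing to 436 to 1014.5 CPM in 3D and 979.6 to 1476 CPM in 2D. Most of that sum was LYZ, which averaged 722 ± 284 CPM in 3D and 1276 ± 269 CPM in 2D (SD, n = 3 each; log2 fold change −0.82, edgeR adjusted p = 0.0555) and was called lower after correction for transcript length and GC content (adjusted p = 0.0341). CD68 was called higher, averaging 32.0 ± 9.52 CPM in 3D and 7.62 ± 1.77 CPM in 2D (SD, n = 3 each), and CD14 was not called (edgeR adjusted p = 0.287). Of 6 megakaryocyte and platelet markers 3 were listed, with TUBB1 called higher, and they summed to 12.5 to 14.9 CPM in 3D and 3.27 to 7.33 CPM in 2D. Of 8 fibroblast and stellate markers 4 were listed, with COL1A1 called higher and PDGFRB and ACTA2 called lower. No listed marker was at 0 in all libraries. In bulk RNA, fewer cells of a type and less RNA per cell cannot be told apart, and the part of these markers in the results below was not tested.

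More clotting genes were lower than higher in the bioreactor. The threshold for a call was an edgeR quasi-likelihood p, adjusted over all tested genes, under 0.05. Of the 29 tested members 12 (41.4%) fell in 3D, against 17.6% of all 15314 tested genes, and 5 (17.2%) rose, against 19.0% of all tested genes. The median log2 fold change of 3D over 2D was −0.22 over the members and 0.02 over all tested genes. All 3D libraries lay below all 2D libraries for 13 members, against 24.9% of all tested genes, and above them for 5 members, against 25.6%. Among the 18 members with at least 20 CPM in both groups, 8 fell and 1 rose. Among the other 11 tested members, which were scarcer, 4 fell and 4 rose. This split by level was chosen after the values were seen. The share of all tested genes called at the same levels was not computed, so these counts have no background. Without 2D replicate 1, 4 tested members were higher and 8 lower, and without 2D replicate 2, 4 were higher and 9 lower. Calls over all tested genes dropped too, from 2910 higher and 2697 lower. They were 1938 and 1828 without 2D replicate 1, and 1953 and 1885 without 2D replicate 2.

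**Figure D1:**
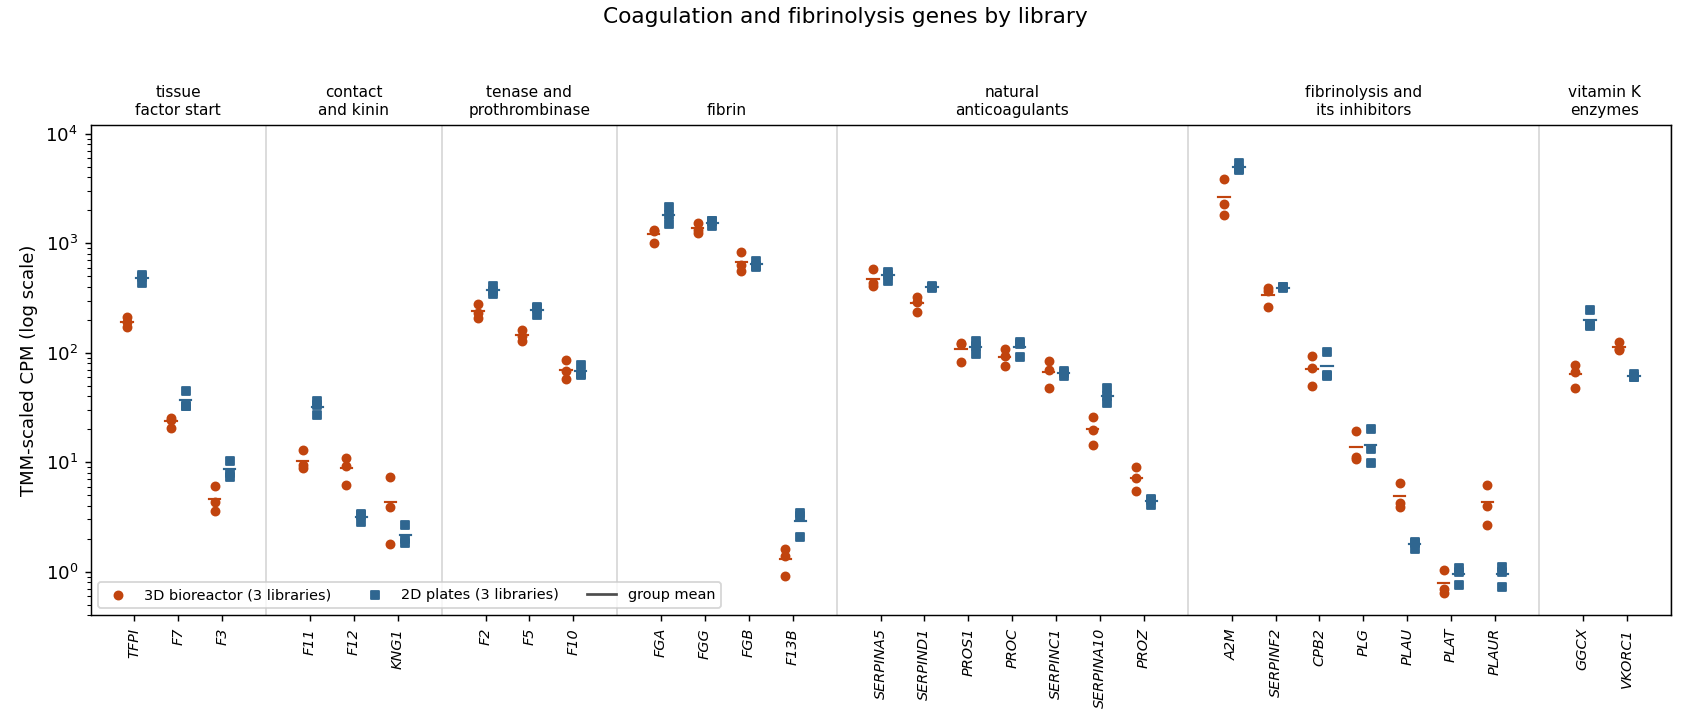
Level of the tested clotting and fibrinolysis genes in each library, in CPM on a log scale, with 3D points left of 2D points, short lines at the group means and genes grouped by role. GGCX, F11 and TFPI lie wholly lower in 3D, and PLAUR, PLAU, F12 and VKORC1 lie wholly higher.

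Taken as a whole, the listed members made up 0.702%, 0.792% and 0.984% of all counts in the 3D libraries and 1.21%, 1.17% and 1.27% in the 2D libraries. The groups did not overlap, with means of 0.826% ± 0.144 in 3D and 1.21% ± 0.0503 in 2D (SD, n = 3 each), and the 2-sided exact permutation test gave p = 0.1, the smallest that 3 against 3 samples allow. A2M and the 3 fibrinogen chains supplied most of these counts. A2M took 27.1% to 38.6% of the members' counts in 3D and 38.4% to 42.7% in 2D, and fibrinogen took 34.4% to 42.6% in 3D and 30.3% to 36.1% in 2D.

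Levels of different genes were compared per kilobase of the median transcript. A2M stood first with 974 CPM per kilobase in 3D and 1811 in 2D, and FGG second with 859.6 in 3D and 972 in 2D. SERPINA5 had rank 3 in 3D with 657 CPM per kilobase and rank 4 in 2D with 702. TFPI had rank 6 in 3D with 249 CPM per kilobase and rank 5 in 2D with 624. When the longest transcript was used instead, FGG led in 3D with 775 CPM per kilobase and A2M came second with 549.5. TFPI then had rank 11 in 3D with 49.2 CPM per kilobase and rank 9 in 2D with 123, and SERPINA5 had rank 5 in both, with 204 in 3D and 217 in 2D. The places of TFPI and SERPINA5 thus depended on the transcript length used.

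The 3 tested genes that start or restrain the first step of clotting all fell, against 17.6% of all tested genes. F3 encodes tissue factor, the membrane receptor that triggers the cascade. F3 was at 3.57, 6.01 and 4.36 CPM in 3D and at 7.39, 10.4 and 8.05 CPM in 2D. Every 3D library was below every 2D library, and the log2 fold change was −0.87 (SE 0.24, edgeR adjusted p = 0.0150). F7 encodes factor VII, the protease that binds tissue factor. F7 was at 20.6, 24.5 and 25.6 CPM in 3D and at 45.1, 32.7 and 32.6 CPM in 2D, with 2D replicate 1 apart from its group. It fell by 0.64 on the log2 scale (SE 0.16, edgeR adjusted p = 0.0103); without 2D replicate 1 the log2 fold change was −0.48 (adjusted p = 0.0647). The call on F3 was likewise lost without 2D replicate 2 (log2 fold change −0.74, adjusted p = 0.0718).

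TFPI, the inhibitor of the tissue factor and factor VII complex, fell as well. It was at 172, 189.8 and 212 CPM in 3D and at 515, 493 and 429.7 CPM in 2D, so the groups were far apart. The log2 fold change was −1.33 (SE 0.13, edgeR adjusted p = 6.8e-05). Ratios between genes below are of CPM, not per length, and are compared only between cultures. Within a library the ratio of TFPI to F7 was 8.33, 7.75 and 8.28 in 3D and 11.4, 15.1 and 13.2 in 2D. AC007319.1, which overlaps TFPI on the other strand, was called higher, with 1.65 ± 0.750 CPM in 3D libraries and 0.593 ± 0.307 CPM in 2D libraries (SD, n = 3 each). TFPI2, a related inhibitor, had 4, 9 and 3 counts in 3D and 4, 0 and 4 counts in 2D.

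The promoters of F3 and PLAUR are shown because, with TFPI2, they were the members whose 250 bases before the start held TGANTCA, the letters that AP-1 factors such as FOS bind. These letters stood in 3 of the 29 members with a promoter sequence and in 6.57% of all 35116 RefSeq promoters searched on both strands. Capitals mark them in the sequences below, read 5′ to 3′ from RefSeq on GRCh38.p14, F3 at chr1:94541760-94542009 on the minus strand and PLAUR at chr19:43670170-43670419 on the minus strand.
F3: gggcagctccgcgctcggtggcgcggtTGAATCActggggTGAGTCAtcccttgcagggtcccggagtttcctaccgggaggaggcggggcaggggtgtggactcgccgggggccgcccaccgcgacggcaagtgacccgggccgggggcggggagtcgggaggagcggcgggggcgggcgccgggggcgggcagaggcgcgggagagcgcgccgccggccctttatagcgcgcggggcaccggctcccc
PLAUR: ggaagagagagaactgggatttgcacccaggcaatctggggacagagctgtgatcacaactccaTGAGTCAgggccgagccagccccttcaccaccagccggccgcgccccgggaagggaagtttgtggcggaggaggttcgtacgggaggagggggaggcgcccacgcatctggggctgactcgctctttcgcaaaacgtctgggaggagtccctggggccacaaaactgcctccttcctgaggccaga
A match describes letters and not a bound site. F3 was lower and PLAUR higher in 3D, and TFPI2 was too low to test. The part of these letters in the results was not tested.

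The contact system, which starts clotting on charged surfaces and releases bradykinin, moved in both directions. F11 encodes factor XI, which activates factor IX. F11 was at 8.83, 9.37 and 12.8 CPM in 3D and at 26.8, 36.6 and 33.4 CPM in 2D. The groups were clearly separate, and F11 fell by 1.64 on the log2 scale (SE 0.19, edgeR adjusted p = 0.00013). F12 encodes factor XII, the protease that activates factor XI. F12 was at 9.22, 6.20 and 11.04 CPM in 3D and at 3.38, 3.27 and 2.83 CPM in 2D. It was 2.78-fold higher in 3D (log2 fold change 1.48, SE 0.25, edgeR adjusted p = 0.00111), with no overlap between groups.

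The ratio of F12 to F11 was therefore 1.04, 0.662 and 0.863 in the 3D libraries and 0.126, 0.0894 and 0.0847 in the 2D libraries. GRK6, a kinase gene that overlaps F12 on the other strand, did not pass the test, with levels of 25.2 ± 6.45 CPM in 3D libraries and 28.5 ± 2.46 CPM in 2D libraries (SD, n = 3 each). F11-AS1, antisense to F11, did not pass it either (log2 fold change −0.95, edgeR adjusted p = 0.0953). KNG1, the kininogen from which bradykinin is cut, was at 1.79, 7.30 and 3.87 CPM in 3D and at 2.00, 2.67 and 1.83 CPM in 2D. Its groups overlapped and it did not pass the test (log2 fold change 1.02, edgeR adjusted p = 0.0860), and leaving out 1 library moved it both ways. Without 3D replicate 1 it passed (1.36, adjusted p = 0.00852), without 3D replicate 2 the log2 fold change was 0.41 (adjusted p = 0.453), and without any 1 of the others it did not pass (adjusted p = 0.113 to 0.208). KLKB1, plasma prekallikrein, had 4, 3 and 10 counts in 3D and 14, 6 and 10 counts in 2D.

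**Figure D2:**
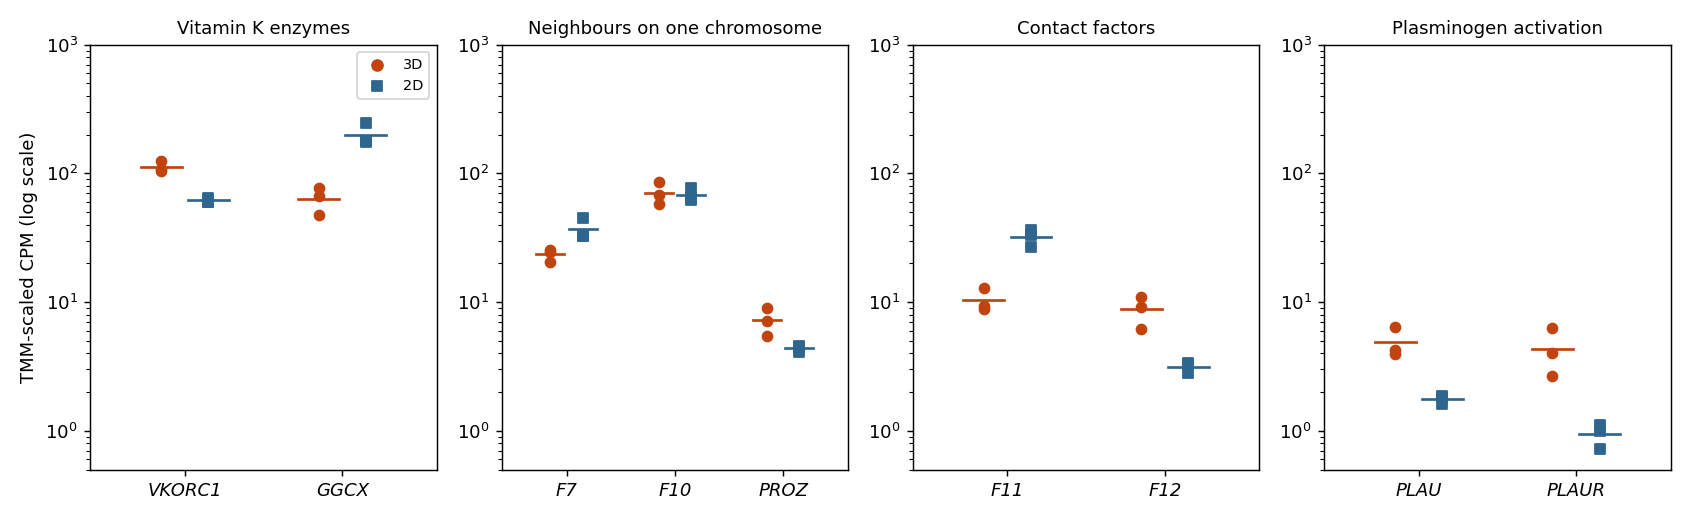
Levels in CPM on a log scale, per library, of genes in 4 sets (vitamin K enzymes, chromosome 13 neighbours, contact factors and plasminogen activation), with 3D left of 2D and lines at the group means. F12 is higher and F11 lower in every 3D library than in every 2D library, and VKORC1 is higher and GGCX lower.

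Prothrombin and factor V were lower in the bioreactor, while factor X was not called. F2 encodes prothrombin. F2 was at 230.0, 209 and 279 CPM in 3D and at 369, 405 and 347 CPM in 2D, and fell by 0.64 on the log2 scale (SE 0.14, edgeR adjusted p = 0.00423). F5 encodes factor V, the cofactor with which factor X activates prothrombin. F5 was at 141, 163 and 128 CPM in 3D and at 222, 260.5 and 255 CPM in 2D, and fell by 0.77 (SE 0.13, edgeR adjusted p = 0.00107), or by 0.46 after correction for length and GC content. For both genes every 3D library lay below every 2D library. F10 was at 57.3, 68.1 and 85.0 CPM in 3D and at 63.9, 77.4 and 62.4 CPM in 2D. The groups overlapped and the log2 fold change was 0.05 (SE 0.16, edgeR adjusted p = 0.831). F8, the cofactor of factor IX, had 10, 9 and 7 counts in 3D and 5, 4 and 1 counts in 2D, too few to test.

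F7, F10 and PROZ lie side by side on chromosome 13, with 2131 bases between F7 and F10 and 9123 bases between F10 and PROZ. Their calls differed: F7 fell, F10 was not called and PROZ rose. The call on F7 was lost without 2D replicate 1. That on PROZ was lost without 3D replicate 3 or any 2D replicate, and after correction for length and GC content. The ratio of F10 to F7 was 2.78, 2.78 and 3.32 in 3D and 1.42, 2.36 and 1.91 in 2D. That of PROZ to F7 was 0.346, 0.222 and 0.354 in 3D and 0.101, 0.137 and 0.126 in 2D.

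Among the fibrinogen chains FGA fell, while FGB and FGG were not called. FGA was at 1006, 1316 and 1296 CPM in 3D and at 2137, 1507 and 1796 CPM in 2D. It fell by 0.59 on the log2 scale (SE 0.17, edgeR adjusted p = 0.0184) with no overlap between groups, but without 2D replicate 1 the log2 fold change was −0.46 (adjusted p = 0.101). FGB was at 556, 632 and 840.2 CPM in 3D and at 687, 609 and 625 CPM in 2D (log2 fold change 0.08, SE 0.16, edgeR adjusted p = 0.732). FGG was at 1249, 1521 and 1323 CPM in 3D and at 1611, 1423 and 1597 CPM in 2D (log2 fold change −0.18, SE 0.14, edgeR adjusted p = 0.342). The libraries of the groups overlapped for FGB and for FGG.

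The fibrinogen genes lie together on chromosome 4, with 12038 bases between FGB and FGA and 13366 bases between FGA and FGG. Their products are joined in equal numbers in the secreted protein. The ratio of FGA to FGB was 1.81, 2.08 and 1.54 in 3D and 3.11, 2.47 and 2.87 in 2D. The ratio of FGA to FGG was 0.805, 0.865 and 0.980 in 3D and 1.33, 1.06 and 1.12 in 2D. Neither ratio overlapped between groups, whereas that of FGB to FGG did. The 3 chains summed to 3246 ± 377 CPM in 3D and 3998 ± 449 CPM in 2D (SD, n = 3 each; 2-sided exact permutation p = 0.1, the smallest possible). Over the 8 ratios computed between members, 7 did not overlap between groups, each with an exact permutation p of 0.1 and an adjusted p of 0.114. The 5 ratios other than those between fibrinogen chains were chosen after the values were seen, which favoured ratios that do not overlap. The count of 7 and the p-values of these 5 ratios are therefore descriptive only. The share of such ratios among other pairs of genes was not computed.

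**Figure D3:**
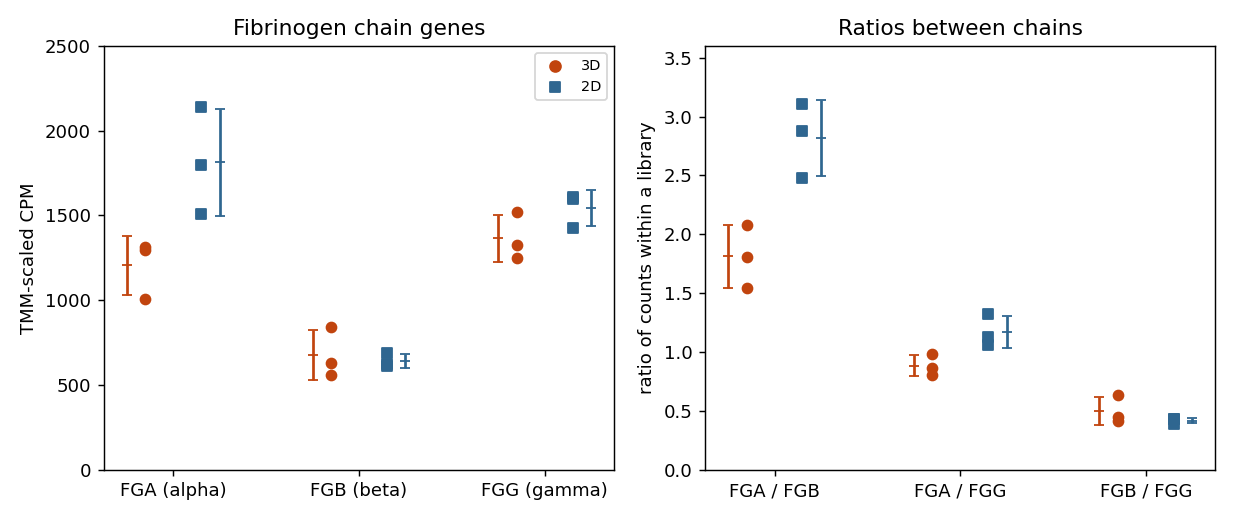
Levels of the fibrinogen chains FGA, FGB and FGG in CPM, per library, and the ratios between chains within each library, with 3D left of 2D and bars for mean ± SD (n = 3). FGA and its ratios to the other chains are lower in all 3D libraries, while FGB and FGG overlap between groups.

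The promoters of the fibrinogen genes are shown because FGA was called while its neighbours FGB and FGG were not. A call on FGA alone does not show that its change differed from theirs. Capitals mark the letters CTGGGAA (found in elements that answer to interleukin-6) and TTGCNNAA (bound by C/EBP factors) on either strand in the 250 bases before each start. The sequences are from RefSeq on GRCh38.p14, read 5′ to 3′: FGB at chr4:154562730-154562979 on the plus strand, FGA at chr4:154590743-154590992 on the minus strand and FGG at chr4:154612657-154612906 on the minus strand.
FGB: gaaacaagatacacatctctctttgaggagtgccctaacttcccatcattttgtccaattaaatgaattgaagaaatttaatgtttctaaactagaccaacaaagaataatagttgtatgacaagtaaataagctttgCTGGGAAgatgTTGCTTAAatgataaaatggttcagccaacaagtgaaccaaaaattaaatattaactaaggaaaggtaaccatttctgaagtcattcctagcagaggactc
FGA: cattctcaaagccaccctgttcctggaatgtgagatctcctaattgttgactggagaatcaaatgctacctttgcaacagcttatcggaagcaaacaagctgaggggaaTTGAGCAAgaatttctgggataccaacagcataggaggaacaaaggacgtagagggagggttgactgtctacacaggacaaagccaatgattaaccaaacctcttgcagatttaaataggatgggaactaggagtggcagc
FGG: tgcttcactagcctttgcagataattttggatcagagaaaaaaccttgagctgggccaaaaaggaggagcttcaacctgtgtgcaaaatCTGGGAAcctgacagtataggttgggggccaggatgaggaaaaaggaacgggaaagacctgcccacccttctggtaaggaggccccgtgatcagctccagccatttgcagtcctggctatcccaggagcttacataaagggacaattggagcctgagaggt
FGB and FGG held CTGGGAA, as did 4 of the 29 members and 9.15% of all promoters. FGB and FGA held TTGCNNAA, as did 6 of the 29 members and 9.05% of all promoters. These matches also describe letters and not bound sites, and their part in the fibrinogen results was not tested.

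F13B, the carrier subunit of the enzyme that cross-links fibrin, was scarce. It was at 1.39, 1.62 and 0.914 CPM in 3D and at 3.44, 3.21 and 2.05 CPM in 2D. It fell by 1.14 on the log2 scale (SE 0.35, edgeR adjusted p = 0.0239), and the call was lost without 3D replicate 3 (adjusted p = 0.0747), 2D replicate 1 (adjusted p = 0.0957) or 2D replicate 2 (adjusted p = 0.0813), and after correction for transcript length and GC content (adjusted p = 0.0556).

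Of the 7 natural anticoagulants tested, 1 (14.3%) rose and 2 (28.6%) fell, against 19.0% and 17.6% of all tested genes. SERPINA10, an inhibitor of factor X that works with protein Z, was at 14.4, 19.6 and 25.9 CPM in 3D and at 34.5, 47.3 and 39.9 CPM in 2D. It fell by 1.01 on the log2 scale (SE 0.20, edgeR adjusted p = 0.00308), with the groups apart. PROZ encodes protein Z, its cofactor. PROZ was at 7.14, 5.43 and 9.07 CPM in 3D and at 4.57, 4.49 and 4.11 CPM in 2D, and rose by a log2 fold change of 0.72 (SE 0.23, edgeR adjusted p = 0.0328). The inhibitor and its cofactor thus moved in opposite directions, but the call on PROZ was lost without 3D replicate 3 (0.50, adjusted p = 0.129) or any 1 of the 2D replicates (0.66 to 0.74, adjusted p = 0.0836 to 0.104), and after correction for length and GC content (0.53, adjusted p = 0.0827).

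SERPIND1 encodes heparin cofactor II, an inhibitor of thrombin. It was at 237, 292 and 322 CPM in 3D and at 389, 403 and 396 CPM in 2D, and fell by 0.48 on the log2 scale (SE 0.14, edgeR adjusted p = 0.0166). The call was lost without 2D replicate 1 (adjusted p = 0.0541) or 2D replicate 2 (adjusted p = 0.0515). PI4KA, a lipid kinase gene that overlaps SERPIND1 on the other strand, also fell, with 54.2 ± 5.78 CPM in 3D and 79.6 ± 7.55 CPM in 2D (SD, n = 3 each). The handling of strand is not given, so reads from such overlapping genes cannot be told apart.

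SERPINC1 encodes antithrombin, the main inhibitor of thrombin. SERPINC1 was at 47.6, 83.4 and 70.0 CPM in 3D and at 67.9, 61.8 and 65.8 CPM in 2D, with a log2 fold change of 0.04 (SE 0.18, edgeR adjusted p = 0.869). PROC encodes protein C, which cuts activated factor V. PROC was at 92.5, 75.7 and 109 CPM in 3D and at 125, 120.0 and 92.2 CPM in 2D. The groups overlapped and PROC did not pass the test (log2 fold change −0.28, SE 0.16, edgeR adjusted p = 0.187), but after correction for transcript length and GC content it did (−0.70, adjusted p = 0.00329). PROS1, the cofactor of protein C, and SERPINA5, its inhibitor, had log2 fold changes of −0.06 and −0.10 (edgeR adjusted p = 0.816 and 0.662).

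In the plasminogen system, urokinase and its receptor rose while plasminogen was not called. PLAU encodes urokinase. PLAU was at 4.27, 6.40 and 3.94 CPM in 3D and at 1.63, 1.88 and 1.83 CPM in 2D, and was 2.74-fold higher in 3D (log2 fold change 1.45, SE 0.29, edgeR adjusted p = 0.00262). PLAUR encodes the receptor that holds urokinase at the cell surface. PLAUR was at 6.25, 4.01 and 2.67 CPM in 3D and at 1.00, 0.727 and 1.11 CPM in 2D, and was 4.46-fold higher in 3D (log2 fold change 2.16, SE 0.38, edgeR adjusted p = 0.00127). All 3D libraries were above all 2D libraries for both genes, at low levels in either culture. Macrophages express PLAUR too. Both groups were labelled as the HepG2 line. Of the 3 listed macrophage and blood markers, CD68 rose and LYZ and CD14 were not called, as given above. Their part in the PLAUR result was not tested. PLG, plasminogen itself, was at 19.1, 10.7 and 11.1 CPM in 3D and at 20.1, 13.2 and 9.82 CPM in 2D (log2 fold change −0.08, SE 0.30, edgeR adjusted p = 0.847).

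A2M encodes alpha-2-macroglobulin, a broad inhibitor that traps plasmin and other proteases. A2M was at 1797, 2308 and 3882 CPM in 3D and at 4718, 4758 and 5379 CPM in 2D. The 3D libraries spread widely, all below the 2D libraries, and A2M fell by 0.90 on the log2 scale (SE 0.25, edgeR adjusted p = 0.0174). The call was lost without 3D replicate 2 (log2 fold change −0.80, adjusted p = 0.0666) or 2D replicate 3 (−0.84, adjusted p = 0.05002). SERPINF2, the main inhibitor of plasmin, was at 259, 367 and 387 CPM in 3D and at 388, 395 and 398 CPM in 2D; all 3D libraries were lower, but it did not pass the test (log2 fold change −0.22, edgeR adjusted p = 0.284), nor after correction for length and GC content (−0.52, adjusted p = 0.0511). PLAT, which encodes tPA, and CPB2, a carboxypeptidase that slows fibrinolysis, did not pass it either (log2 fold change −0.25 and −0.08, edgeR adjusted p = 0.655 and 0.841). HRG, a plasma protein that binds plasminogen, had 1, 4 and 8 counts in 3D and 1, 1 and 1 counts in 2D.

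**Figure D4:**
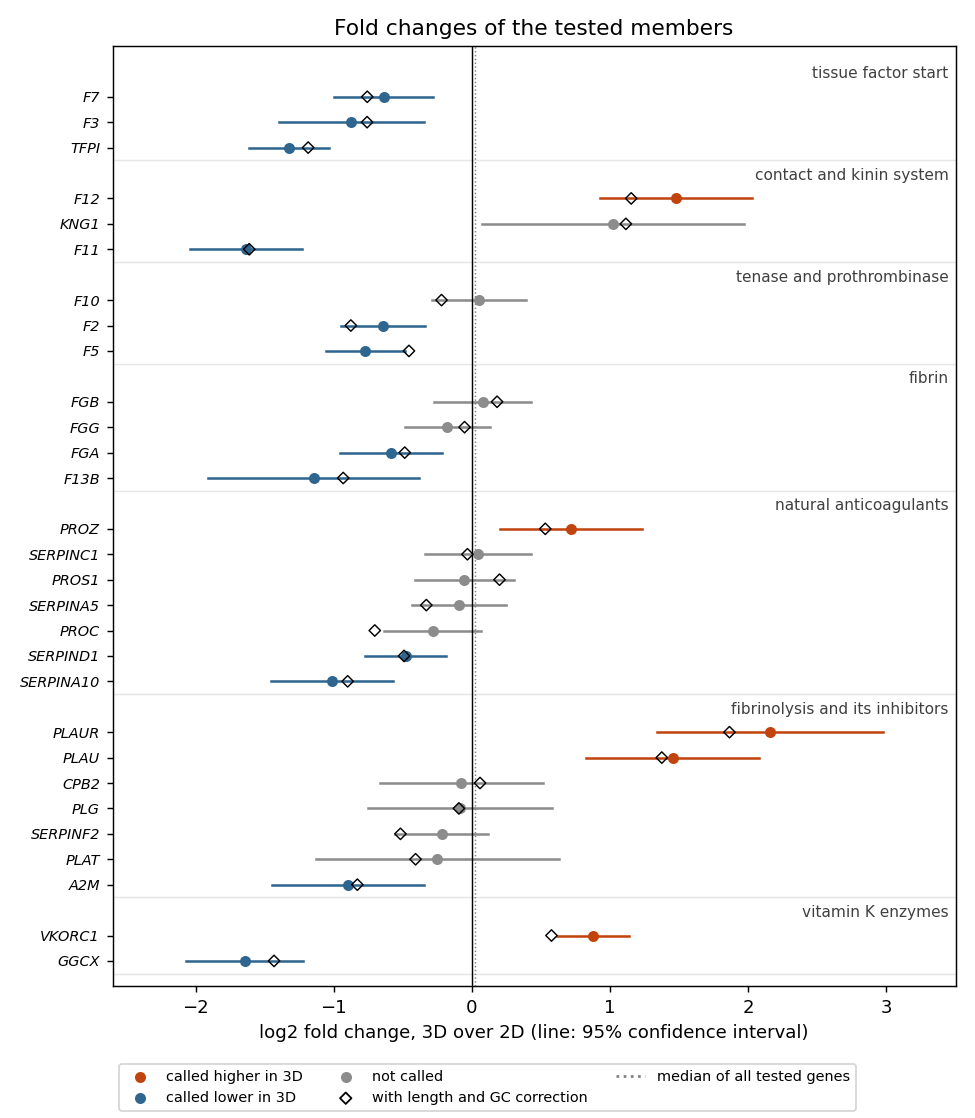
Log2 fold change of 3D over 2D for each tested member with its 95% confidence interval, grouped by role, with called members marked. PLAUR has the highest value, at 2.16, and GGCX and F11 have the lowest, at −1.64.

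Of the vitamin K cycle genes on the list, GGCX fell and VKORC1 rose. GGCX encodes the carboxylase that modifies prothrombin, factors VII, IX and X and proteins C, S and Z. GGCX was at 47.8, 66.2 and 76.8 CPM in 3D and at 175, 246 and 177 CPM in 2D, and fell by 1.64 on the log2 scale (SE 0.19, edgeR adjusted p = 0.000201). VKORC1 encodes the reductase that regenerates vitamin K and is the target of warfarin. VKORC1 was at 105, 108 and 126 CPM in 3D and at 60.4, 64.1 and 60.4 CPM in 2D, and was 1.83-fold higher in 3D (log2 fold change 0.88, SE 0.12, edgeR adjusted p = 0.000326). After correction for length and GC content its log2 fold change was 0.58 (adjusted p = 0.00162). RP11-196G11.1 on the same strand and RP11-196G11.3 on the other strand overlap VKORC1 and were also called higher. They averaged 1.14 and 5.57 CPM in 3D and 0.415 and 3.14 CPM in 2D. VKORC1L1, a second vitamin K reductase from the list of partners, chosen after its values were seen, went the other way from VKORC1. It averaged 64.5 ± 5.06 CPM in 3D and 111.0 ± 4.76 CPM in 2D (SD, n = 3 each; log2 fold change −0.78, edgeR adjusted p = 0.000521). The ratio of VKORC1 to GGCX was 2.20, 1.64 and 1.64 in 3D and 0.345, 0.261 and 0.341 in 2D, with a wide gap between the cultures. MAT2A, a methionine metabolism gene that overlaps GGCX on the other strand, also fell, with 328 ± 38.8 CPM in 3D and 623 ± 181 CPM in 2D (log2 fold change −0.93, edgeR adjusted p = 0.00368). Of the 6 tested members that need this carboxylation, 1 rose (PROZ, 16.7%) and 2 fell (F2 and F7, 33.3%). Over all tested genes 19.0% rose and 17.6% fell. The calls on PROZ and F7 were lost in some alternatives, as given above.

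Other genes of the pathway were taken from a list of 38, of which 36 were listed and 32 tested. Of these 9 (28.1%) rose and 10 (31.2%) fell, against 19.0% and 17.6% of all tested genes, and the median log2 fold change was 0.06. S100A10, part of a surface receptor for plasminogen and tPA, averaged 49.0 CPM in 3D and 21.8 CPM in 2D (log2 fold change 1.17). ENO1, a glycolytic enzyme that also binds plasminogen, averaged 1866 CPM in 3D and 886 CPM in 2D (log2 fold change 1.07). ANXA2 and PLGRKT from the same list, chosen after their values were seen, were not called. Their log2 fold changes were 0.05 and 0.48 (edgeR adjusted p = 0.869 and 0.183). TMPRSS6, a liver membrane protease, averaged 12.5 ± 2.01 CPM in 3D and 2.14 ± 0.459 CPM in 2D (SD, n = 3 each; log2 fold change 2.53).

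Among the partners that fell were genes of secretion and of contact inhibition. MCFD2, which helps carry factors V and VIII out of the endoplasmic reticulum, averaged 269 CPM in 3D and 475 CPM in 2D (log2 fold change −0.82). LMAN1, its binding partner, chosen after its values were seen, averaged 265 CPM in 3D and 413 CPM in 2D (log2 fold change −0.64, edgeR adjusted p = 0.00793), a call lost after correction for length and GC content (adjusted p = 0.0986). SERPING1, the inhibitor of C1 and of factor XII, averaged 1.81 CPM in 3D and 5.14 CPM in 2D (log2 fold change −1.48). PLSCR1 and THBS1 fell as well, by 1.07 and 0.81 on the log2 scale.

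Of 31 regulators of these genes, 30 were listed and 29 tested. Among them, 4 (13.8%) were called higher and 12 (41.4%) lower, against 19.0% and 17.6% of all tested genes, and their median log2 fold change was −0.43. CEBPA, a factor of mature hepatocytes, rose and averaged 212 CPM in 3D and 125 CPM in 2D (log2 fold change 0.76). NR1I2, a receptor for drugs and bile acids, rose too, averaging 21.6 CPM in 3D and 11.96 CPM in 2D (log2 fold change 0.84). CEBPB, a factor of the acute phase response, fell and averaged 91.8 CPM in 3D and 354 CPM in 2D (log2 fold change −1.95). EGR1 averaged 170 ± 117 CPM in 3D and 743 ± 188 CPM in 2D (SD, n = 3 each; log2 fold change −2.13, edgeR adjusted p = 0.0164), a call lost without 2D replicate 2 (adjusted p = 0.0637) or 2D replicate 3 (adjusted p = 0.0703). FOS, a subunit of AP-1, averaged 85.8 CPM in 3D and 277 CPM in 2D (log2 fold change −1.69, edgeR adjusted p = 0.0499), and 5 of the 6 fits that left out 1 library lost the call (adjusted p = 0.0738 to 0.177). Upper-quartile scaling (adjusted p = 0.0541), no filter on low counts (0.104) and a replicate block (0.0650) lost the FOS call too. JUN, JUNB, FOSL1 and ATF3 from the same list, chosen after their values were seen, were not called. Their log2 fold changes were −0.76, 0.16, −0.22 and −0.53 (edgeR adjusted p = 0.197, 0.581, 0.387 and 0.317). HNF4A, a main activator of liver genes, averaged 325 CPM in 3D and 354 CPM in 2D and did not pass the test (log2 fold change −0.12, edgeR adjusted p = 0.453). It was called lower after correction for length and GC content (−0.34, adjusted p = 0.0379).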

How the data were processed

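The authors deposited estimated counts for each gene in 6 HepG2 samples. STAR 2.4.1d, Partek and genome build hg38 were used, per the submitters' processing notes. Annotation release, counting settings and strand handling are not stated in those notes as seen here. Of all values 61.7% were whole (tolerance 0), and the lowest total of a gene was 10. Estimated counts were rounded to whole numbers. A count of 3 corresponds to 0.167 to 0.298 CPM, for counting error only. No libraries of a group agreed within sampling noise (chi-square per degree of freedom 11.2 to 29.5).

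Samples were grouped by title. The cultures were compared with edgeR 4.0.16 (R 4.3.3) after TMM scaling, in a robust quasi-likelihood fit whose single term was the culture, and p-values were adjusted by Benjamini-Hochberg over 15314 genes. Single values were compared by exact permutation. Transcript lengths and GC content came from GENCODE release 29 and were found for 29 of 29 tested members and 88.3% of tested genes. RefSeq promoters matched 29 of the 33 listed members. The members and gene lists were chosen with earlier results of these data known. By rule, values per sample were given for every called member and for a fixed set of central members, and the largest called changes were named among partners (up to 4 per direction) and regulators (up to 3); some genes the rule names are not reported here. In 2 simulations of 3 against 3 samples, edgeR found 23.9% of 1.5-fold changes, 64.2% of 2-fold changes and 93.2% of 4-fold changes. Of 264 calls, 23 were false. Each simulation changed 200 genes, whereas 5607 were called in these data, so the rates need not hold here. Alternatives were DESeq2 1.42.0, limma-voom 3.58.1, other scalings and filters, a length and GC correction, a replicate block, and leaving out libraries.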

Additional observations from a re-analysis of the deposited data

How the results depend on the processing

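Of the 17 called members, 10 stayed called in all 18 alternatives (F12, PLAU, PLAUR and VKORC1 higher; F2, F5, F11, SERPINA10, TFPI and GGCX lower), 7 lost the call in at least 1, and 0 changed direction. Called members numbered 4 to 6 higher and 8 to 13 lower. With 1 library left out, 1938 to 2817 of all genes were called higher. Same-numbered samples showed no sign of pairing (correlations 0.053, −0.00924 and −0.0783), which cannot exclude a paired design. With the replicate block 5 members were higher and 12 lower. With the block and the length and GC correction together, FGA was not called (log2 fold change −0.48, adjusted p = 0.0646), whereas SERPINF2 (−0.56, adjusted p = 0.0231) and KNG1 (0.99, adjusted p = 0.0362) were. The genes whose direction turned were not called. Under the length and GC correction, and under the replicate block with that correction, the log2 fold changes were −0.22 and −0.24 for F10, 0.20 and 0.19 for PROS1, −0.033 and −0.060 for SERPINC1, and 0.058 and 0.054 for CPB2. With libraries left out they ranged from −0.12 to 0.26 for F10, −0.11 to 0.19 for FGB, −0.16 to 0.10 for PROS1, −0.28 to 0.0039 for SERPINA5, −0.15 to 0.22 for SERPINC1, −0.47 to 0.23 for PLG and −0.32 to 0.20 for CPB2. The cause was not tested. Depth limits the scarce members: F8, HRG, KLKB1 and TFPI2 had adjusted p of 0.0829, 0.0930, 0.598 and 0.307 when no filter on low counts was used.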
